A study of Oryza sativa with 6 samples.

Results

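The levels of 6 Aux/IAA loci, which code for repressors of the auxin response, were followed in rice roots that ran short of water. LOC_Os06g07040, listed as OsIAA20, was 2.66-fold higher after 2 d of water deficiency (WD) than in well-watered roots and 1.94-fold higher after 3 d. LOC_Os01g13030, listed as OsIAA3, was 2.75-fold lower after 2 d and 4.48-fold lower after 3 d. LOC_Os05g08570 and LOC_Os01g08320 stayed within 2-fold of control at both times, LOC_Os08g01780 was 1.99-fold and 1.88-fold higher, and LOC_Os01g09450 was lower than control at 2 d and higher at 3 d.

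The 6 members were taken by locus name. They are named by 8 of the 63985 entries in the deposited tables, an entry being a transcript locus that the authors assembled and quantified. Of these 8 entries, 6 reached 1 FPKM (fragments scaled to transcript length and library size) in at least 1 group, with 1 entry for each locus, and 23528 entries of the whole series did so. LOC_Os01g08320 has another entry at 0.220 FPKM in watered roots, 0.161 FPKM at 2 d and 0.281 FPKM at 3 d, and another entry of LOC_Os06g07040 is listed at 0 in all 3 groups. These 2 low entries were left out of the ratios. The supplementary annotation of the study describes LOC_Os01g13030 and LOC_Os06g07040 as Aux/IAA genes, and the other 4 loci are placed in the family by locus name alone.

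Roots came from 4-week-old seedlings of the japonica cultivar Chilbo grown in soil in pots. Control plants were watered throughout (2 libraries), and irrigation was withheld for 2 d (2 libraries) or 3 d (2 libraries) from plants grown for 4 weeks. The day on which the control roots were taken for RNA-Seq is not given, so days of growth may differ between the groups. No other treatment or genotype entered the RNA-Seq. The tables hold 1 FPKM value per group, in which the authors' software joined the 2 libraries, so no value below has a spread between replicates, no test on these values was possible, and the order of close levels cannot be told. The authors' own test results were not used for any value here. The supplementary annotation that gives loci a gene name comes with the study's lists of differentially expressed genes. Which loci carry a gene name below therefore depends partly on the study's own calls. The levels describe whole roots, in which fewer cells of a type and less RNA per cell cannot be told apart. The tissue label was not checked against marker genes, because none of the root and leaf markers looked for is paired with its locus name in the study's tables or the reference list. Of the drought markers that the study names, the entry that lists OsDREB2b (LOC_Os05g27930) measured 37.4 FPKM in watered roots, 48.6 FPKM at 2 d and 56.2 FPKM at 3 d, and it lists a further locus. OsbZIP23 (LOC_Os02g52780) measured 1.25 FPKM in watered roots, 0.704 FPKM at 2 d and 0.947 FPKM at 3 d, below the watered value at both times. Both entries lie in the later part of their chromosome, where entries more often share a locus name. The OsbZIP23 entry itself names no other locus, and no other entry names OsbZIP23.

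Auxin shapes root growth and branching. Aux/IAA proteins bind auxin response factors (ARFs) on their target genes and bring in corepressors, which keeps the targets silent. Auxin joins an Aux/IAA protein to an F-box receptor of the TIR1/AFB family, the Aux/IAA is marked with ubiquitin and degraded, and the ARFs are set free. Many Aux/IAA genes are themselves switched on by auxin, so that the pathway limits itself.

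OsIAA20 was the member with the largest increase over control. Its entry lies on chromosome 6 from 3341763 to 3346318 in the authors' IRGSP 1.0 coordinates and names no other locus. The LOC_Os06g07040 value was 28.98 FPKM in watered roots, 77.1 FPKM at 2 d and 56.1 FPKM at 3 d. Both WD values lie above the control value, and the 2 d value is the higher of the pair. The log2 ratio to control was 1.41 at 2 d and 0.95 at 3 d. Among all entries with a ratio, 10.0% had a higher one at 2 d and 21.2% at 3 d.

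OsIAA3 moved the other way. Its entry lies on chromosome 1 from 7248756 to 7254629 and names no other locus. The LOC_Os01g13030 value was 49.7 FPKM in watered roots, 18.1 FPKM at 2 d and 11.1 FPKM at 3 d. The level was lower at each time, with a log2 ratio to control of -1.46 at 2 d and -2.16 at 3 d. Of all entries with a ratio, 18.3% had a lower one at 2 d and 16.2% at 3 d, so ratios this low were frequent in these tables. From 2 d to 3 d the log2 ratio of LOC_Os01g13030 was -0.70.

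The order of OsIAA20 and OsIAA3 in FPKM therefore differed between watered and drying roots. FPKM is scaled to length, but how reads that match several genes of a family were shared is not given. Whether reads are recovered equally well from different genes was not tested. Ratios, orders and shares between Aux/IAA loci therefore describe the listed FPKM values, and may differ from those of the transcripts. In control the OsIAA3 level was 1.72 times that of OsIAA20. After 2 d the OsIAA20 level was 4.27 times that of OsIAA3, and after 3 d 5.06 times.

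**Figure D1:**
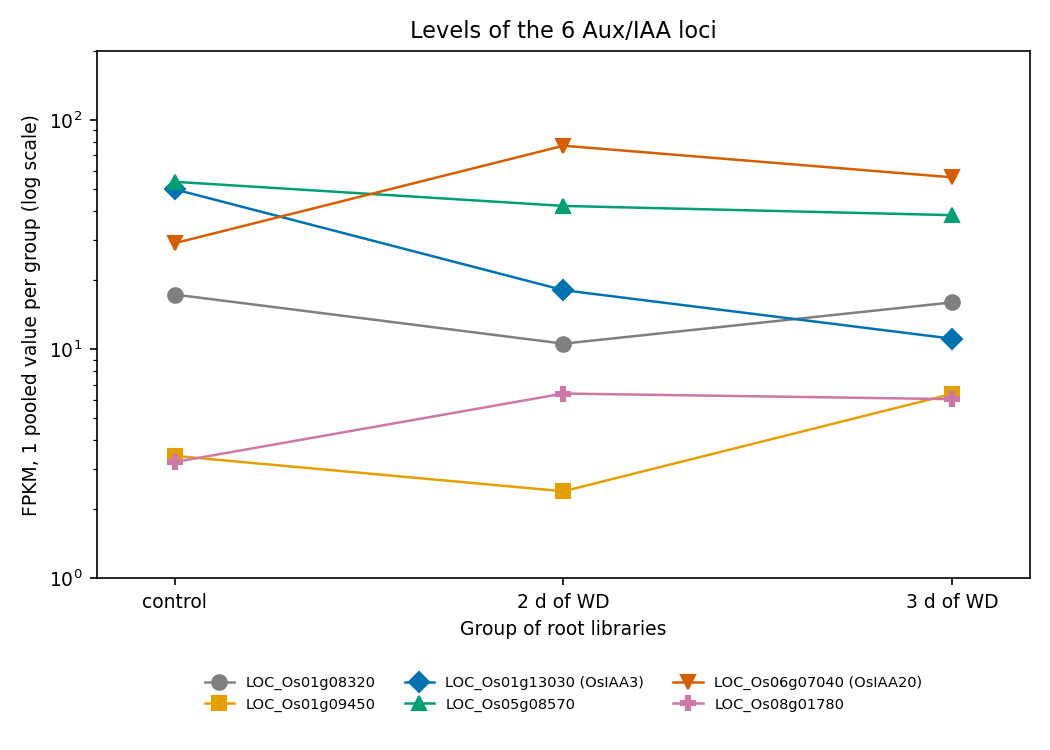
FPKM of the 6 Aux/IAA loci in control roots and after 2 d and 3 d of WD, on a log axis, with 1 pooled value per group and no error bars because the tables hold none. The line of OsIAA20 crosses those of OsIAA3 and LOC_Os05g08570 between control and 2 d, and LOC_Os01g09450 is lowest at 2 d.

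LOC_Os05g08570 had the highest level of the 6 members in control. It lies on chromosome 5 from 4681459 to 4684544, and measured 53.6 FPKM in watered roots, 42.1 FPKM at 2 d and 38.4 FPKM at 3 d. The level of LOC_Os05g08570 was a little lower at each time, with log2 ratios of -0.35 and -0.48. LOC_Os01g08320, on chromosome 1 from 4072918 to 4076438, measured 17.3 FPKM in watered roots, 10.6 FPKM at 2 d and 16.0 FPKM at 3 d. Its log2 ratio of -0.71 at 2 d stood at -0.11 at 3 d, close to the control level again.

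The remaining members were expressed at lower levels. LOC_Os08g01780, on chromosome 8 from 466740 to 473512, measured 3.22 FPKM in watered roots, 6.40 FPKM at 2 d and 6.05 FPKM at 3 d. Its log2 ratios of 0.99 and 0.91 lie just inside the limit of 1 used for counting, so its place outside the count rests on a small margin. LOC_Os01g09450, on chromosome 1 from 4815786 to 4818962, measured 3.42 FPKM in watered roots, 2.40 FPKM at 2 d and 6.37 FPKM at 3 d. It was the only member whose ratio to control changed sign between the times, from -0.51 to 0.90 on the log2 scale, and only 1.83% of entries had a higher ratio of 3 d to 2 d than its 1.41.

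Added up, the 6 loci changed little at 2 d while their make-up shifted. Their summed FPKM was 156 in control, 157 after 2 d and 134 after 3 d. FPKM summed over all entries was also lowest after 3 d, at 2.17e+06, 2.08e+06 and 1.88e+06 in the same order. OsIAA20 (LOC_Os06g07040) held 18.5% of the sum of the 6 loci in control, 49.2% after 2 d and 41.9% after 3 d. OsIAA3 (LOC_Os01g13030) held 31.8%, 11.5% and 8.28% in the same order. LOC_Os05g08570 held 34.3%, 26.9% and 28.6%, which left it second to OsIAA20 under WD. The share of LOC_Os01g08320 was 11.1% in control, 6.74% after 2 d and 11.9% after 3 d. The weakly expressed LOC_Os08g01780 and LOC_Os01g09450 held between 1.53% and 4.76% each in every group.

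**Figure D2:**
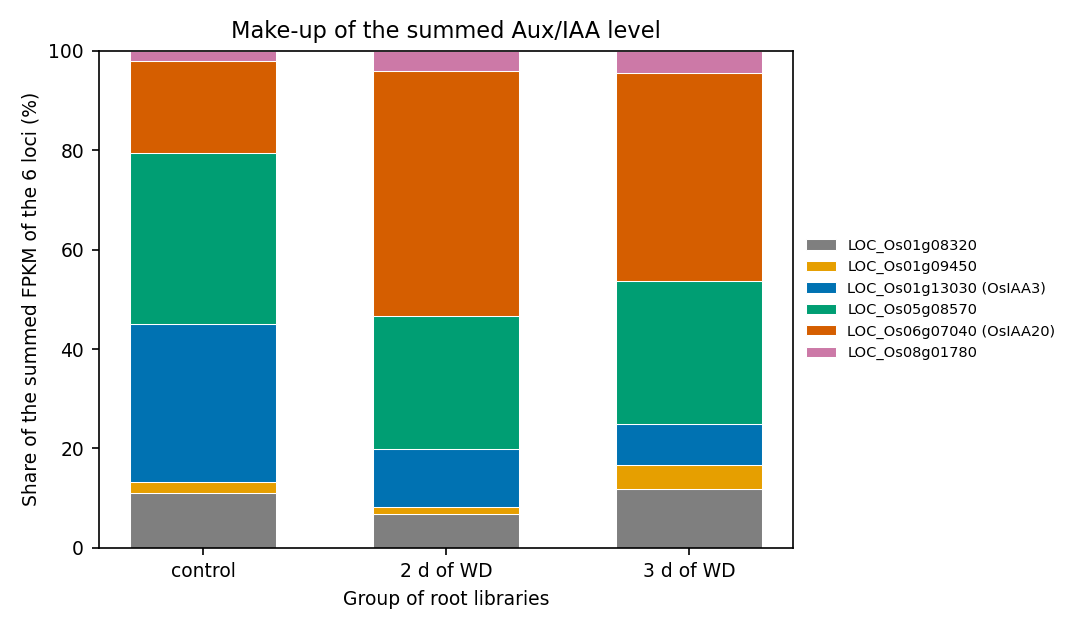
Share of each of the 6 Aux/IAA loci in their summed FPKM, in percent, for control roots and roots after 2 d and 3 d of WD (1 pooled value per group). OsIAA20 makes up 18.5% in control and 49.2% after 2 d, and OsIAA3 31.8% and 11.5%.

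The order of the listed FPKM values differed accordingly. In control it ran from LOC_Os05g08570 through OsIAA3, OsIAA20, LOC_Os01g08320 and LOC_Os01g09450 to LOC_Os08g01780. After 2 d it ran from OsIAA20 through LOC_Os05g08570, OsIAA3, LOC_Os01g08320 and LOC_Os08g01780 to LOC_Os01g09450. After 3 d it ran from OsIAA20 through LOC_Os05g08570, LOC_Os01g08320, OsIAA3 and LOC_Os01g09450 to LOC_Os08g01780. LOC_Os01g09450 and LOC_Os08g01780 had close levels in control and after 3 d, and without replicates their order there cannot be told.

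A 2-fold limit, a log2 ratio past 1, was used to read these counts against all entries. After 2 d, 1 of the 6 members was higher (16.7%), beside 15.4% of the 22908 entries with a ratio. Likewise 1 member was lower (16.7%), beside 24.1% of entries. After 3 d, 0 members were higher, beside 20.1% of 22601 entries, and 1 was lower (16.7%), beside 28.1%. OsIAA20, LOC_Os08g01780 and LOC_Os01g09450 lay just under the limit at 3 d, with log2 ratios of 0.95, 0.91 and 0.90. Between 2 d and 3 d of WD, 1 member was higher at 3 d (LOC_Os01g09450, 16.7%), beside 4.65% of 22668 entries, and 0 were lower, beside 12.6%. With 6 members, 1 locus is 16.7%, so these shares say nothing about the family as a whole. The median log2 ratio of the members was -0.43 at 2 d and 0.39 at 3 d, beside -0.01 and -0.01 over all entries. At 3 d it is the midpoint between LOC_Os01g08320 at -0.11 and LOC_Os01g09450 at 0.90, and no member lies between them. These medians therefore do not describe the family as a whole either. Both comparisons use the same control libraries, and LOC_Os01g09450 was the only member on different sides of 0 at the 2 times.

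**Figure D3:**
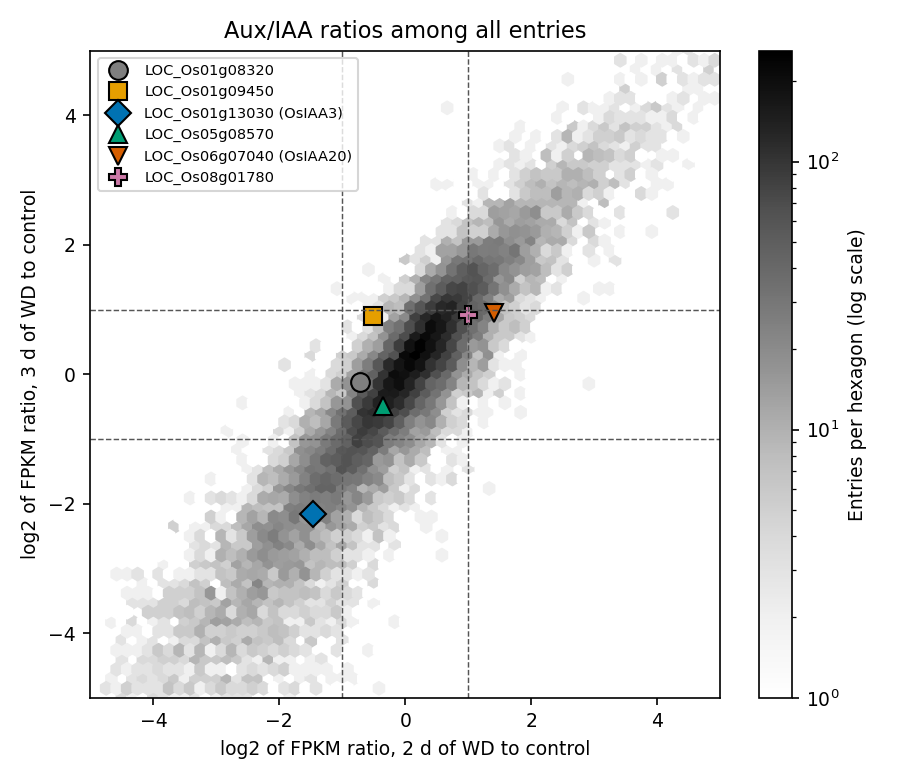
Log2 ratio of FPKM to control at 3 d against that at 2 d of WD for the 6 Aux/IAA loci (coloured) and for all entries with a ratio at both times (grey hexagons, shaded by number on a log scale), with dashed lines at 1 and -1. Entries beyond 5 on either axis are not drawn. OsIAA3 lies past -1 at both times, OsIAA20 past 1 at 2 d only, and LOC_Os01g09450 at -0.51 and 0.90.

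The place of an entry matters for how its locus name can be read. On each chromosome a position was sought, here called the change point, after which expressed entries share their locus name with another entry more often. On chromosome 1 it lies at 10147324, where 12.0% of the entries before and 50.0% of those after shared their name. Every one of the 6 members stands ahead of the change point on its own chromosome, from 2765 kb ahead for LOC_Os05g08570 to 10937 kb for LOC_Os08g01780. Of these, LOC_Os01g08320 and LOC_Os06g07040 still share their name with the low entries given above. Taking only entries before the change points, 14.0% of entries were higher and 24.4% lower at 2 d, and 17.9% and 28.6% at 3 d.

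Next to the members on the chromosome, the nearest expressed entries on either side did not share one pattern. Of these 12 entries, 1 was higher and 2 were lower after 2 d, and 3 were higher and 1 was lower after 3 d. Over all entries, 15.4% were higher and 24.1% lower after 2 d, and 20.1% and 28.1% after 3 d. Beside OsIAA20, LOC_Os06g07070 on the right had log2 ratios of 0.59 and 0.89, with 19.6 FPKM in control. The nearer LOC_Os06g07030 on the left had 0.20 and 1.49, with 0.385 FPKM in control. Beside OsIAA3, LOC_Os01g13060 had log2 ratios of 0.45 and 0.17, while OsIAA3 itself was lower at both times. An entry without a gene name on the other side of OsIAA3 measured 111 FPKM in watered roots, 50.1 FPKM at 2 d and 95.6 FPKM at 3 d.

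Entries with a pattern most like that of the 2 members past the limit were sought among 1817 others that name 1 locus, lie before a change point and exceed 4 FPKM in all 3 groups. The measure was the distance between the pairs of log2 ratios at 2 d and 3 d, so it rests on 3 pooled values. Closest to OsIAA3 was LOC_Os05g06710, at 33.2 FPKM in watered roots, 12.0 FPKM at 2 d and 7.54 FPKM at 3 d, a distance of 0.03. LOC_Os02g02840 (0.07) and LOC_Os05g02770 (0.09) came next. Closest to OsIAA20 was LOC_Os05g10690, at 23.7 FPKM in watered roots, 62.5 FPKM at 2 d and 44.9 FPKM at 3 d, also at 0.03, followed by LOC_Os01g11880 (0.05) and LOC_Os01g16550 (0.08).

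The rest of the auxin pathway was read from 4 lists of loci, drawn up from general knowledge of rice locus names, which the tables do not annotate. Of 25 further Aux/IAA loci, 11 were listed at 0 in every group and 8 had an entry at 1 FPKM or more. Among the 8 entries with a ratio, 2 were higher and 2 lower at both times, beside 15.4% higher and 24.1% lower at 2 d and 20.1% and 28.1% at 3 d over all entries. The median log2 ratio was 0.22 at 2 d and 0.42 at 3 d. LOC_Os05g09480, before the change point of chromosome 5, measured 4.34 FPKM in watered roots, 0.313 FPKM at 2 d and 0.367 FPKM at 3 d, a log2 ratio of -3.79 and -3.57. An entry of LOC_Os01g53880 measured 2.42 FPKM in watered roots, 18.4 FPKM at 2 d and 25.5 FPKM at 3 d, and LOC_Os07g08460 was at 1.05, 5.61 and 4.62 FPKM. Both lie after the change point, and LOC_Os01g53880 has another entry at 8.54, 10.6 and 12.0 FPKM. Chosen after its values were seen, an entry of LOC_Os02g57250, after the change point, measured 11.5 FPKM in control and was listed at 0 under WD. The same locus has another entry at 0.889 FPKM in control, 0.174 FPKM at 2 d and 0.111 FPKM at 3 d.

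Auxin is perceived by the TIR1/AFB F-box proteins, for which 5 loci were listed. LOC_Os03g08850, annotated in the study's tables as AUXIN SIGNALING F-BOX 2, measured 13.3 FPKM in watered roots, 6.80 FPKM at 2 d and 5.50 FPKM at 3 d, a log2 ratio of -0.97 and -1.28. It was the only entry of the 4 with a ratio that passed the limit, and it did so at 3 d. At that time 28.1% of all entries were lower and 20.1% higher, so 1 of 4 says nothing about the receptors. LOC_Os05g05800, chosen after its values were seen, had the highest level of the receptor entries and stands ahead of its change point. It measured 40.1 FPKM in watered roots, 43.4 FPKM at 2 d and 71.2 FPKM at 3 d, with log2 ratios of 0.11 and 0.83. Chosen after its values were seen, an entry of LOC_Os04g32460, after the change point, was listed at 0 in control and measured 7.96 FPKM at 2 d and 5.08 FPKM at 3 d. The same locus has 2 other entries, at 13.6, 11.2 and 10.9 FPKM and at 2.06, 3.30 and 3.58 FPKM.

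The ARFs, the transcription factors that Aux/IAA proteins hold back, were represented by 25 loci, of which 13 had an entry at 1 FPKM or more. Of 17 such entries, 3 were lower and 0 higher at 2 d, beside 24.1% lower and 15.4% higher over all entries. At 3 d again 3 were lower and 0 higher, beside 28.1% and 20.1%. LOC_Os01g13520, annotated as auxin response factor 1, had the largest drop in FPKM among these. It measured 122 FPKM in watered roots, 23.5 FPKM at 2 d and 11.7 FPKM at 3 d, with log2 ratios of -2.37 and -3.38. This entry stands, like OsIAA3, ahead of the change point of chromosome 1, from 7545812 to 7551996. LOC_Os11g32110, after the change point, measured 9.60 FPKM in watered roots, 1.59 FPKM at 2 d and 0.440 FPKM at 3 d. The median log2 ratio of the ARF entries was -0.05 at 2 d and -0.22 at 3 d.

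Some GH3 enzymes join auxin to amino acids and so lower free auxin, and many GH3 genes are induced by it. These data do not show which of the listed GH3 loci act on auxin. Of the 9 entries at 1 FPKM or more, 3 were lower and 0 higher at each time, beside 24.1% lower and 15.4% higher of all entries at 2 d and 28.1% and 20.1% at 3 d. Their median log2 ratio was -0.61 at 2 d and -0.06 at 3 d. The 3 lower entries were not the same at both times. An entry of LOC_Os07g38890 that lists a further locus, chosen after its values were seen, passed the limit at 2 d only. Its log2 ratios were -1.21 and 0.23. The entry of LOC_Os11g32510 passed it at 3 d only, with log2 ratios of -0.61 and -1.23. LOC_Os05g05180 measured 17.3 FPKM in watered roots, 1.86 FPKM at 2 d and 1.504 FPKM at 3 d. LOC_Os01g12160 measured 23.1 FPKM in watered roots, 7.57 FPKM at 2 d and 10.8 FPKM at 3 d. Both stand ahead of the change point. The entry of OsGH3-13 (LOC_Os11g32510), which lists a further locus and lies after it, was at 93.1, 61.1 and 39.8 FPKM.

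**Figure D4:**
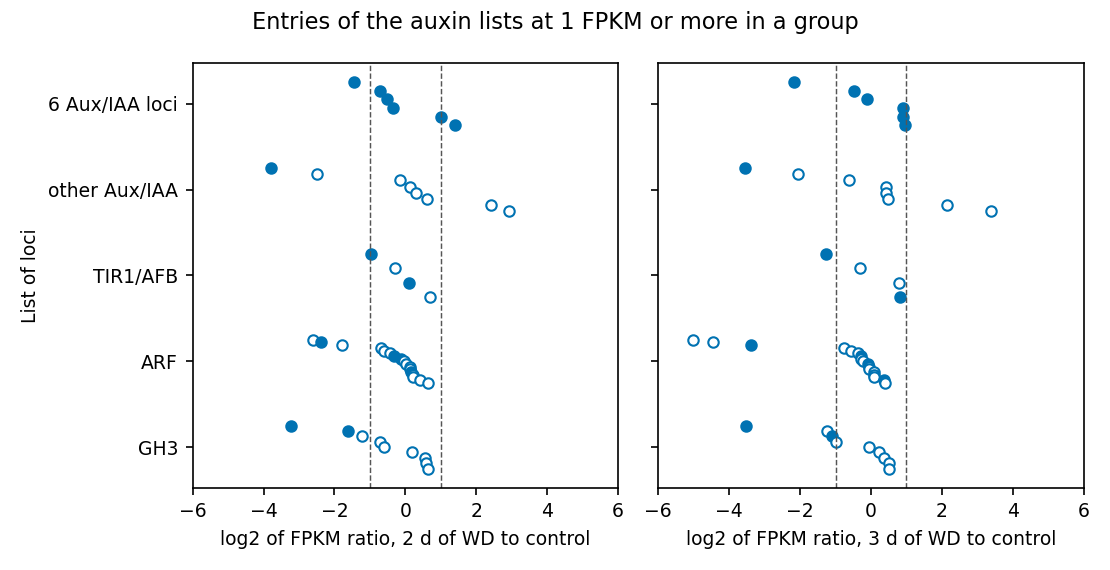
Log2 ratio of FPKM to control at 2 d (left) and 3 d (right) of WD for entries of the 6 Aux/IAA loci and of 4 auxin lists that reached 1 FPKM in a group, 1 point per entry, filled where the entry lies before the change point of its chromosome and open where it lies after it. Vertical positions within a list only separate the points, and dashed lines mark 1 and -1; no ARF or GH3 entry lies past 1.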

How the data were processed

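Paired-end root reads were trimmed by the authors (Trim Galore, cutadapt), aligned to the IRGSP 1.0 genome (TopHat), assigned to RGAP gene models and quantified per group (Cuffdiff). Tool versions, library scaling and the sharing of reads that match several genes of a family are not given in these sources. The deposited FPKM values are pooled over the 2 libraries of a group by the authors, and 0 columns per library were used. The tables also hold the authors' fold changes, test statistics, p-values and q-values, which were not used. The control and 2 d values were identical wherever the comparisons share them.

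Log2 ratios of FPKM were computed here without a pseudocount, for entries at 1 FPKM or more in at least 1 of the 3 groups and above 0 in both groups compared. The design allowed for a test on values per library, which could not be run on pooled values. The members and lists were chosen with earlier results of these data known. The text names all 6 members, list loci past a log2 ratio of 1 in the same direction at both times in an entry over 4 FPKM in a group, and the 3 entries nearest in pattern to each member past the limit. Outside this rule, it names loci that the study's tables annotate, the study's drought markers, entries beside OsIAA20 and OsIAA3, another entry of a named locus, and loci said to be chosen after their values were seen. The change point is the position that best splits expressed entries by shared locus names, with at least 30 on each side and the higher share after it. Of the 74 loci, 0 matched the reference list of another assembly by identifier, and no sequence is given. Depth per library is unknown. Among 1469 entries above 0 and under 0.1 FPKM in every group, the most frequent ratio to control was 1.10 at 2 d (51 entries) and 1.19 at 3 d (47 entries), and whole reads were not recovered from these. The counting rule and change point search were tested on simulated data. Python 3.11.15, pandas 2.3.3, numpy 2.4.6 and matplotlib 3.10.9 were used. Pseudocounts, FPKM limits, centring, a 1.5-fold limit, single-locus entries, summed loci and entries before the change points were tried as alternatives.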

Additional observations from a re-analysis of the deposited data

How the results depend on the processing

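Each of the 157 log2 ratios of the 6 members under the 9 alternatives kept its sign and its side of 1. Most could not do otherwise, because a limit or a choice of entries does not alter a ratio. Only the pseudocounts and the centring altered the ratios of every member, and summing altered only those of LOC_Os01g08320. With FPKM over 4 in both groups, members under that limit had no ratio. Counts moved with the limits by construction. With a 1.5-fold limit, 2 members were higher and 2 lower at 2 d, and 3 were higher and 1 lower at 3 d. For 3 d against 2 d, 2 were higher and 1 lower. At that limit 26.0% of all entries were higher and 32.0% lower at 2 d, 30.7% higher and 35.3% lower at 3 d, and 13.2% higher and 21.9% lower at 3 d against 2 d. With FPKM over 4 in both groups, 0 members were higher at 3 d against 2 d, since LOC_Os01g09450 was under the limit. Over the auxin lists together, 38 entries had a ratio. Of these, 2 were higher and 8 lower at 2 d, and 2 higher and 9 lower at 3 d. Over all entries, 15.4% were higher and 24.1% lower at 2 d, and 20.1% and 28.1% at 3 d. With a pseudocount of 0.1 the list counts were 3 and 9, then 3 and 10, of 40. The shares of all entries were then 15.4% and 24.5%, then 19.7% and 29.3%. With no FPKM limit the list counts were 3 and 12, then 3 and 13, of 48. Beside them stood 16.0% and 25.4%, then 21.0% and 28.0%, of all entries. The list counts were 0 and 2, then 0 and 4, of 25 with FPKM over 4 in both groups. With a 1.5-fold limit they were 6 and 13, then 4 and 12, of 38. With only entries before the change point they were 0 and 4, then 0 and 5, of 9. With FPKM over 4 in both groups, 10.4% of all entries were higher and 11.8% lower at 2 d, and 16.2% and 13.2% at 3 d. Taking only entries before the change point, 14.0% were higher and 24.4% lower at 2 d, and 17.9% and 28.6% at 3 d.

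No paired analysis was possible because the deposited columns do not separate the 2 libraries of a group, and replicates could not be left out either. Without values per library, the differences were not set against the spread between roots here.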
